A study of Homo sapiens with 24 samples.

Results

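UCSD-AML1 is a human acute myeloid leukemia cell line that carries a rearrangement of chromosome 3 at MECOM, the gene of the transcription factor EVI1. The comparison described here is that of 4 UCSD-AML1 libraries from cells given 3 mM cyclocreatine for 24 h with 4 libraries from cells given vehicle, 8 of the 24 libraries of the series. Its members were chosen by their labels alone, and the other 16 libraries are the same design in UT-7 and TF-1, which the study also describes as leukemia lines driven by EVI1. Nothing in the labels ties the 4 replicates of a group to cultures grown apart. The p-values may thus measure only a technical spread between these samples. The labels also give bone marrow as the source and blood as the tissue of what is a cultured line.

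Cyclocreatine is a ring-shaped analog of creatine. Creatine enters cells through the transporter SLC6A8, and creatine kinases pass the phosphate of ATP to it and back, which buffers ATP in cells with a high demand. Cyclocreatine is also taken up and phosphorylated, but phosphocyclocreatine gives its phosphate back slowly, so that it accumulates and holds phosphate. The title of the series names the creatine kinase pathway of leukemia with EVI1 as its subject.

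Library totals were 14297101 to 15818426 counts with cyclocreatine and 14297926 to 17414130 counts with vehicle. The first principal component of the log2 CPM of 14588 tested genes held 50.9% of the variance and set the 4 cyclocreatine libraries at 21.83 to 25.03 and the 4 vehicle libraries at -24.84 to -21.74. The next held 9.98%, with vehicle replicates 3 and 4 at its ends (17.43 and -16.21). The 10 most counted genes took 4.087% to 4.174% of the counts of a cyclocreatine library and 3.753% to 3.853% of those of a vehicle library. Levels are CPM, the counts of a gene per 1000000 counts of a library total scaled by TMM, and are relative to all RNA of the cells. Fold changes are cyclocreatine over vehicle on the log2 scale, with an approximate SE taken from the edgeR F statistic, and a gene was called at a Benjamini-Hochberg adjusted p under 0.05 over all tested genes.

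The markers of the line were mixed. All 7 stem and progenitor markers, 6 of 7 megakaryocyte markers and 5 of 10 granulocyte and monocyte markers reached a mean of 1 CPM. So did 3 of 6 lymphoid and 5 of 7 stromal and epithelial markers, among them CD79A and KRT18 (36.86 and 93.09 CPM with vehicle). CD34, a surface protein of progenitors, averaged 637.9 ± 8.331 CPM with cyclocreatine and 584.3 ± 19.66 CPM with vehicle (SD, n = 4 each). MECOM, KIT, GATA2, RUNX1 and the macrophage growth factor receptor CSF1R were all above 100 CPM, and ITGA2B, an integrin of megakaryocytes, was near 580 CPM. The globin genes HBA1, HBA2 and HBB, which define red cells, had 0 counts in all 8 libraries, as did the granule genes ELANE and PRTN3, and MPO had 4 and 5 counts over the cyclocreatine and the vehicle group. The endothelial adhesion gene CDH5 stood at 248.5 ± 5.383 CPM with cyclocreatine and 259.0 ± 8.842 CPM with vehicle, and PECAM1 at 54.99 ± 2.517 CPM with cyclocreatine and 50.99 ± 3.362 CPM with vehicle (SD, n = 4 each). The markers CD34 and GATA2 rose (log2 fold changes 0.13 and 0.24), and MECOM and RUNX1 fell (-0.28 and -0.51).

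Cyclocreatine changed a large share of the genes of UCSD-AML1, mostly by small amounts. By edgeR, 2790 genes rose (19.1%) and 3112 fell (21.3%), which makes 5902 called genes or 40.5% of the 14588 tested. The median size of a called log2 fold change was 0.31. At least a 2-fold change was seen in 194 genes that rose and 250 that fell. For 6454 genes, 44.2% of those tested, all 4 cyclocreatine libraries lay on 1 side of all 4 vehicle libraries, so a lack of overlap between the groups is common here.

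**Figure D1:**
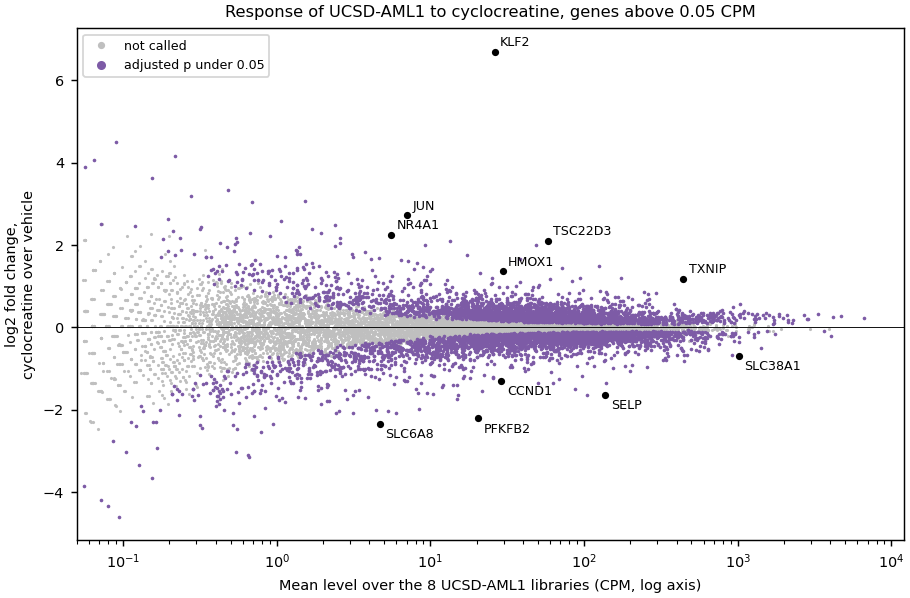
Each point is a gene with a mean above 0.05 CPM; the x axis gives its mean level over the 8 UCSD-AML1 libraries (CPM, log axis) and the y axis its log2 fold change, cyclocreatine over vehicle. Called genes are purple, and KLF2, at a log2 fold change of 6.70, lies apart from all others at its level.

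The gene that rose most was KLF2, a zinc finger transcription factor that keeps lymphocytes and endothelial cells quiescent. KLF2 had 48.9, 48.2, 53.9 and 56.6 CPM in the cyclocreatine libraries, against 0.569, 0.25, 0.552 and 0.598 CPM in the vehicle libraries. The groups lie far apart: the vehicle libraries held 31 counts of KLF2 in all and the cyclocreatine libraries 3193, a 103.8-fold difference (log2 fold change 6.70 ± 0.15, edgeR adjusted p = 2.53e-30). KLF6, a related factor induced by growth factors and stress, had 75.0, 76.7, 78.5 and 82.5 CPM in the cyclocreatine libraries, against 19.5, 19.3, 18.8 and 19.9 CPM in the vehicle libraries (log2 fold change 2.01 ± 0.06, edgeR adjusted p = 2.99e-26). The replicates of a group differed little.

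Immediate early and hormone-responsive transcription factors were also among the largest increases. JUN, the AP-1 subunit, had 12.3, 11.3, 12.9 and 12.9 CPM in the cyclocreatine libraries, against 2.5, 1.81, 1.52 and 1.53 CPM in the vehicle libraries (log2 fold change 2.72 ± 0.12, edgeR adjusted p = 3.13e-20). NR4A1, an orphan nuclear receptor, had 8.89, 9.96, 9.24 and 8.68 CPM in the cyclocreatine libraries, against 1.88, 2.25, 2.35 and 1.26 CPM in the vehicle libraries (log2 fold change 2.25 ± 0.17, edgeR adjusted p = 3.34e-13). TSC22D3, the glucocorticoid-induced leucine zipper gene and a target of FOXO factors, had 90.1, 91.3, 98.7 and 96.1 CPM in the cyclocreatine libraries, against 22.6, 22.5, 21.0 and 20.7 CPM in the vehicle libraries (log2 fold change 2.11 ± 0.06, edgeR adjusted p = 2.38e-25). Counts of JUN and NR4A1 were low with vehicle, with 118 counts of JUN over the group.

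The other genes in the upper 12 are of varied function. CDA, cytidine deaminase, which breaks down cytidine and its drug analogs such as cytarabine, had 19.9, 20.4, 23.9 and 23.3 CPM in the cyclocreatine libraries, against 5.8, 4.57, 5.04 and 4.85 CPM in the vehicle libraries (log2 fold change 2.11 ± 0.14, edgeR adjusted p = 3.15e-15). ARG2, the mitochondrial arginase that turns arginine into ornithine, had 53.3, 59.1, 59.7 and 60.7 CPM in the cyclocreatine libraries, against 18.1, 17.9, 19.7 and 18.3 CPM in the vehicle libraries (log2 fold change 1.65 ± 0.07, edgeR adjusted p = 8.85e-21). CLEC7A, the receptor for fungal beta-glucan, had 187, 179, 184 and 182 CPM in the cyclocreatine libraries, against 65.0, 66.9, 63.6 and 67.1 CPM in the vehicle libraries (log2 fold change 1.48 ± 0.06, edgeR adjusted p = 4.58e-22). These 3 genes differed in abundance, with CLEC7A the most counted of the upper 12. The collagen-binding integrin ITGA10 averaged 26.8 ± 1.69 CPM with cyclocreatine and 7.88 ± 1.21 CPM with vehicle. The Notch ligand JAG2 averaged 9.71 ± 0.514 CPM with cyclocreatine and 3.11 ± 0.537 CPM with vehicle. RAPGEFL1, a member of the Rap exchange factor family, averaged 10.8 ± 1.68 CPM with cyclocreatine and 3.54 ± 0.497 CPM with vehicle. SPTB, erythroid beta-spectrin, averaged 12.2 ± 1.21 CPM with cyclocreatine and 4.11 ± 0.391 CPM with vehicle. Their log2 fold changes were 1.77, 1.64, 1.61 and 1.57.

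**Figure D2:**
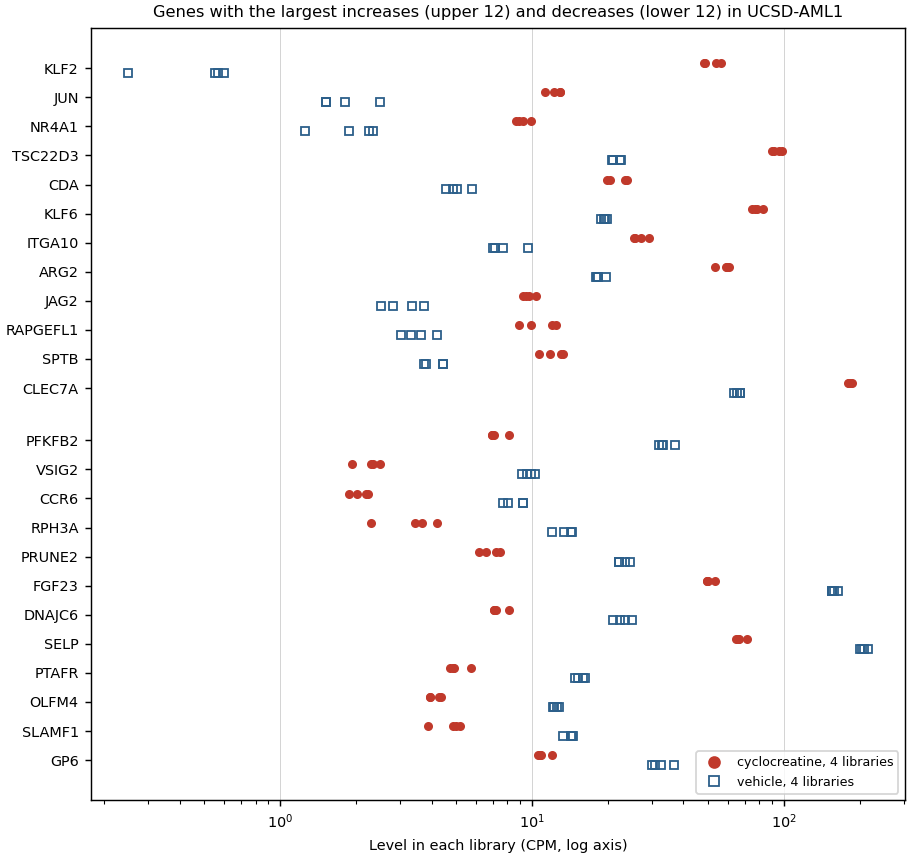
Levels in each library (CPM, log axis) of the 12 called genes with the largest increase and the 12 with the largest decrease among genes with at least 5 CPM and no overlap of the groups; filled red circles are the 4 cyclocreatine libraries and open blue squares the 4 vehicle libraries. KLF2 spans 0.25 to 56.6 CPM, and vehicle replicate 2 is its lowest library.

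Promoters are shown for KLF2, KLF6 and JUN, which rose, and for the creatine transporter gene SLC6A8, which fell, because the data turn on their RNA levels and the windows share short elements. The sequences are RefSeq's for GRCh38.p14, from 250 bases before to 50 bases after the gene's start, 5′ to 3′ on the strand of the gene. They lie at chr19:16324576-16324875 (plus strand, KLF2), chr10:3785160-3785459 (minus strand, KLF6), chr1:58783998-58784297 (minus strand, JUN) and chrX:153687676-153687975 (plus strand, SLC6A8). Capitals mark matches, on either strand, to the consensus of the MEF2 factors, to TGACATCA or to TGACGTCA.
KLF2: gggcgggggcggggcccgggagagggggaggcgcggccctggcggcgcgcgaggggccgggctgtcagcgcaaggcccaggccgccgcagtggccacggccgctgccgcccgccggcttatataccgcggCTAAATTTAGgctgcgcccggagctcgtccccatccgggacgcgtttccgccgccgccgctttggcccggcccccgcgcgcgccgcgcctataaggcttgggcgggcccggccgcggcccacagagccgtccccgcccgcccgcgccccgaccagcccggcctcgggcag
KLF6: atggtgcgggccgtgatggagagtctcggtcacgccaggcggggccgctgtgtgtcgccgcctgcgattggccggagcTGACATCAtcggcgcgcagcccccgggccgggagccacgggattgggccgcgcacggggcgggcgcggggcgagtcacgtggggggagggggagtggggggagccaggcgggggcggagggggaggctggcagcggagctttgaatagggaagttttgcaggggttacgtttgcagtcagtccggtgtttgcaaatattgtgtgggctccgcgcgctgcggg
JUN: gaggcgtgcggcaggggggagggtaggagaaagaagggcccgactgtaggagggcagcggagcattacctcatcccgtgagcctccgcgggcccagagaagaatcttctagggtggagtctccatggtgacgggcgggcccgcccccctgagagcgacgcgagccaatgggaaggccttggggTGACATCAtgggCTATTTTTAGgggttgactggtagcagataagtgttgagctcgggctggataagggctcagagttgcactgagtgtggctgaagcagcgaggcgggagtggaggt
SLC6A8: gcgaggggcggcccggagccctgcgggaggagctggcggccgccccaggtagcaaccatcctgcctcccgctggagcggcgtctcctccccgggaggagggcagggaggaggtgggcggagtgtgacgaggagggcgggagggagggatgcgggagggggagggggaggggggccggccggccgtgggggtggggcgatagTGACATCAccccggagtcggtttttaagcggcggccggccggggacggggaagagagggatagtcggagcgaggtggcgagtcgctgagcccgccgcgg
The KLF2 window holds a MEF2 consensus match 120 bases before the start, the JUN window holds one 55 bases before it, and that of CKB, a creatine kinase gene that fell, holds one 70 bases before it. TGACATCA, which in JUN is known as a site for dimers of JUN with ATF2, lies 67 bases before the start of JUN, 172 before that of KLF6 and 49 before that of SLC6A8. TGACGTCA, the cAMP response element, is in none of these 4 windows, and the ARG2 window holds it at 172 and 64 bases before the start. The motifs did not overlap each other in these windows. A MEF2 match is in 0.371% of the 15347 promoter windows of tested genes, TGACATCA in 1.67% and TGACGTCA in 2.67%, and over all 35116 windows the shares are 0.572%, 2.61% and 1.85%. Of 11 genes of the upper 12 with an entry, 2 hold a MEF2 match, 2 hold TGACATCA and 1 holds TGACGTCA, and of 10 genes of the lower 12 with an entry, 1 (FGF23) holds TGACATCA and 0 hold either of the others. These counts are per gene, with a match in any of its windows, while the shares are per window. The 15347 windows belong to 10513 tested genes, so the units differ. The motifs were chosen after the sequences had been read, and a match describes the letters only.

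Among genes with at least 5 CPM and no overlap of the groups, the largest decrease was that of PFKFB2, an isoform of the enzyme that sets fructose 2,6-bisphosphate, an activator of glycolysis. PFKFB2 had 6.92, 8.15, 7.11 and 6.95 CPM in the cyclocreatine libraries, against 33.2, 36.9, 31.9 and 32.9 CPM in the vehicle libraries (log2 fold change -2.21 ± 0.09, edgeR adjusted p = 3.88e-22). FGF23, the bone hormone that makes the kidney excrete phosphate, had 49.4, 49.7, 53.3 and 49.9 CPM in the cyclocreatine libraries, against 158, 156, 155 and 164 CPM in the vehicle libraries (log2 fold change -1.65 ± 0.06, edgeR adjusted p = 2.03e-21). SELP, P-selectin, the adhesion protein of platelet and endothelial granules, had 66.5, 71.2, 64.6 and 65.6 CPM in the cyclocreatine libraries, against 209, 215, 204 and 201 CPM in the vehicle libraries (log2 fold change -1.63 ± 0.06, edgeR adjusted p = 1.26e-22). The lack of overlap in these genes, as in the upper 12, was a condition of their choice. FGF23 was at or near 0 in the other lines, with means of 0.0373 CPM in UT-7 with cyclocreatine and 0.0349 CPM with vehicle, and 0 in all TF-1 libraries.

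Several surface receptors of blood cells fell as well. The collagen receptor of platelets, GP6, had 10.6, 12.1, 10.9 and 10.8 CPM in the cyclocreatine libraries, against 30.7, 36.7, 30.0 and 32.7 CPM in the vehicle libraries (log2 fold change -1.55 ± 0.08, edgeR adjusted p = 4.59e-19). PTAFR, the receptor for platelet-activating factor, averaged 5.05 ± 0.47 CPM with cyclocreatine and 15.6 ± 0.674 CPM with vehicle. The chemokine receptor CCR6 averaged 2.09 ± 0.167 CPM with cyclocreatine and 8.53 ± 0.811 CPM with vehicle. The log2 fold changes of PTAFR and CCR6 were -1.62 and -2.02. SLAMF1, a self-ligand receptor of lymphocytes and stem cells, averaged 4.73 ± 0.602 CPM with cyclocreatine and 14.2 ± 0.593 CPM with vehicle (-1.59). OLFM4, a secreted granule glycoprotein of neutrophils, averaged 4.14 ± 0.23 CPM with cyclocreatine and 12.5 ± 0.332 CPM with vehicle (-1.59). The rest of the lower 12 were VSIG2 (2.27 ± 0.234 CPM with cyclocreatine and 9.71 ± 0.497 CPM with vehicle), RPH3A, a Rab effector (3.39 ± 0.802 CPM with cyclocreatine and 13.6 ± 1.12 CPM with vehicle), PRUNE2 (6.86 ± 0.595 CPM with cyclocreatine and 23.1 ± 1.1 CPM with vehicle) and DNAJC6, the clathrin-uncoating protein auxilin (7.39 ± 0.507 CPM with cyclocreatine and 23.0 ± 1.72 CPM with vehicle). Their log2 fold changes were -2.09, -1.99, -1.75 and -1.64.

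Among genes changed at least 1.5-fold, the most abundant that rose was TXNIP, the arrestin that blocks glucose uptake and binds thioredoxin, induced by MondoA when glucose 6-phosphate is high. TXNIP had 594, 593, 628 and 646 CPM in the cyclocreatine libraries, against 287, 272, 258 and 269 CPM in the vehicle libraries (log2 fold change 1.18 ± 0.04, edgeR adjusted p = 2.01e-23). HSPB1, a small heat shock protein, averaged 374 ± 12.2 CPM with cyclocreatine and 209 ± 8.66 CPM with vehicle. The transcriptional repressor ZNF503 averaged 324 ± 12.7 CPM with cyclocreatine and 203 ± 3.59 CPM with vehicle. EHD2, a protein of caveolar necks, averaged 332 ± 7.55 CPM with cyclocreatine and 189.6 ± 6.19 CPM with vehicle. CPNE1, a calcium-dependent membrane-binding protein, averaged 313 ± 8.2 CPM with cyclocreatine and 198 ± 7.07 CPM with vehicle. CRTAP, of the collagen prolyl hydroxylase complex, averaged 300.2 ± 6.64 CPM with cyclocreatine and 199 ± 2.46 CPM with vehicle. The most abundant that fell was the glutamine transporter SLC38A1, with 789, 784, 774 and 754 CPM in the cyclocreatine libraries, against 1245, 1274, 1283 and 1199 CPM in the vehicle libraries (log2 fold change -0.69 ± 0.05, edgeR adjusted p = 9.18e-15). TFRC, the transferrin receptor, averaged 361 ± 8.91 CPM with cyclocreatine and 579.9 ± 14.3 CPM with vehicle. The platelet alpha-granule protein MMRN1 averaged 712 ± 10.97 CPM with cyclocreatine and 1135 ± 30.1 CPM with vehicle. The metalloprotease inhibitor TIMP3 averaged 322 ± 4.22 CPM with cyclocreatine and 571 ± 25.5 CPM with vehicle. The noncoding RNA KIAA0125 averaged 345 ± 2.9 CPM with cyclocreatine and 546 ± 8.46 CPM with vehicle. Another noncoding RNA, LINC00657 (also called NORAD), averaged 310.0 ± 7.86 CPM with cyclocreatine and 495 ± 6.03 CPM with vehicle. All of these separated by group in every library, as did 44.2% of all tested genes and 5441 of the 5902 called genes.

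Of 8 genes of creatine uptake, synthesis and phosphorylation, 5 were tested, 3 fell and 1 rose, in a setting where 40.5% of all genes were called. SLC6A8, the creatine transporter, had 1.84, 1.49, 1.81 and 1.04 CPM in the cyclocreatine libraries, against 8.48, 10.1, 3.79 and 8.91 CPM in the vehicle libraries (log2 fold change -2.34 ± 0.33, edgeR adjusted p = 1.05e-05). The group ranges were separate, and vehicle replicate 3 was the lowest of the vehicle libraries. SLC6A8 has a near-identical pseudogene, so that its level is uncertain. CKB, brain-type creatine kinase, had 277, 289, 289 and 287 CPM in the cyclocreatine libraries, against 426, 416, 366 and 389 CPM in the vehicle libraries (log2 fold change -0.48 ± 0.06, edgeR adjusted p = 3.63e-08). GAMT, which methylates guanidinoacetate to creatine, had 52.5, 59.0, 59.3 and 59.0 CPM in the cyclocreatine libraries, against 51.0, 50, 48.3 and 47.4 CPM in the vehicle libraries (log2 fold change 0.22 ± 0.07, edgeR adjusted p = 0.00849), and its call was lost when a trend with GC content was removed (log2 fold change 0.08). CKM, muscle-type creatine kinase, averaged 4.48 ± 0.734 CPM with cyclocreatine and 5.87 ± 0.56 CPM with vehicle with overlapping groups (log2 fold change -0.39 ± 0.15, edgeR adjusted p = 0.0312), and its call was lost in limma-voom (adjusted p = 0.0522) and in the edgeR fit without 1 of cyclocreatine replicates 1, 3 and 4 or vehicle replicate 2. GATM, the first enzyme of creatine synthesis, had 3 counts over the cyclocreatine group and 9 over the vehicle group and did not pass (log2 fold change -1.41, edgeR adjusted p = 0.223), but passed without cyclocreatine replicate 1, which held all 3 counts (-4.20, adjusted p = 0.016). CKMT2 had 25 counts over the cyclocreatine group and 22 over the vehicle group and was not tested, and CKMT1A and CKMT1B, near-identical to each other, had 0 counts in all 8 libraries.

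Organic osmolytes are small solutes that balance cell volume, and several of their transporters rose with cyclocreatine. Of 8 genes of osmolyte transport and osmotic response 4 rose and 0 fell (50% rose, against 19.1% of all tested genes), with a median log2 fold change of 0.29 beside 0.00 for all genes. This median rests on single libraries: it was 0.48 without cyclocreatine replicate 3, 0.72 without vehicle replicate 2, 0.46 without vehicle replicate 3 and 0.60 with the 8 libraries fitted alone (6 genes tested), while 4 genes rose in each fit without 1 of these libraries. SLC5A3, the myo-inositol transporter, had 136, 129, 127 and 129.8 CPM in the cyclocreatine libraries, against 56.7, 59.3, 53.4 and 57.5 CPM in the vehicle libraries (log2 fold change 1.20 ± 0.09, edgeR adjusted p = 7.25e-10). SLC6A6, the taurine transporter of the same family as SLC6A8, had 312, 315, 331 and 317 CPM in the cyclocreatine libraries, against 175, 184, 174 and 169 CPM in the vehicle libraries (log2 fold change 0.86 ± 0.05, edgeR adjusted p = 1.05e-15). SLC6A12, the betaine and GABA transporter, had 1.84, 2.92, 3.49 and 2.64 CPM in the cyclocreatine libraries, against 0.455, 0.313, 0.138 and 0.332 CPM in the vehicle libraries (log2 fold change 3.08 ± 0.40, edgeR adjusted p = 9.92e-08). All 3 transporters were higher in each cyclocreatine library, where 44.2% of all tested genes had no overlap of the groups. SLC6A12 was under 0.5 CPM in each vehicle library. SLC38A2, a transporter of small neutral amino acids, rose by less (657 ± 22.4 CPM with cyclocreatine and 529 ± 14.9 CPM with vehicle). The osmotic factor NFAT5 (117 ± 11.6 CPM with cyclocreatine and 109 ± 5.87 CPM with vehicle; log2 fold change 0.10 ± 0.10, edgeR adjusted p = 0.496) and aldose reductase AKR1B1 (41.7 ± 5.24 CPM with cyclocreatine and 37.7 ± 1.05 CPM with vehicle; log2 fold change 0.14 ± 0.09, edgeR adjusted p = 0.212) did not pass, although AKR1B1 did with the 8 libraries fitted alone (adjusted p = 0.0255).

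**Figure D3:**
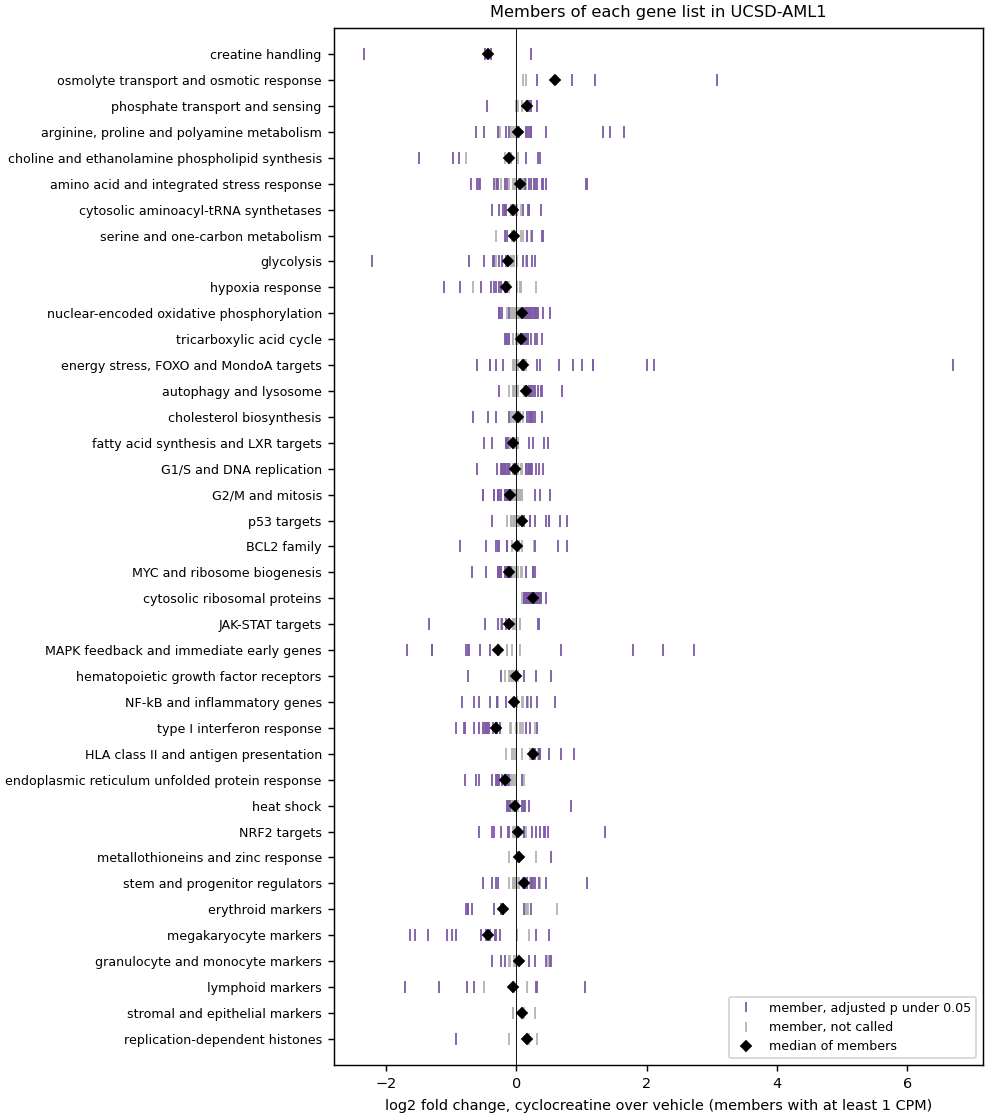
Each row is a gene list and each tick the log2 fold change (cyclocreatine over vehicle) of a member with at least 1 CPM in UCSD-AML1, purple where called; diamonds mark the medians of these members. The diamonds for osmolyte transport (0.59) and the cytosolic ribosomal proteins (0.26) lie to the right of 0, and those for megakaryocyte markers (-0.43) and the type I interferon response (-0.31) to the left.

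Of 9 genes of phosphate transport and sensing 5 rose (55.6%, against 19.1% of all tested genes) and 1 fell, with a median of 0.16. The glucose 6-phosphate translocase SLC37A4 averaged 68.5 ± 2.31 CPM with cyclocreatine and 54.8 ± 1.41 CPM with vehicle. The sodium-phosphate importer SLC20A1 averaged 299 ± 5.97 CPM with cyclocreatine and 261 ± 5.38 CPM with vehicle. The mitochondrial phosphate carrier SLC25A3 averaged 503 ± 8.88 CPM with cyclocreatine and 451 ± 5.45 CPM with vehicle. PPIP5K2, a kinase that makes pyrophosphorylated inositol phosphates, was the member that fell (281 ± 3.39 CPM with cyclocreatine and 384 ± 10.4 CPM with vehicle; log2 fold change -0.45 ± 0.05, edgeR adjusted p = 2.91e-10).

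In arginine, proline and polyamine metabolism 9 of 22 tested genes rose and 5 fell. These are 40.9% and 22.7%, against 19.1% and 21.3% of all tested genes. With a trend in GC content removed 9 fell. Beside ARG2, SAT1, which acetylates spermidine and spermine for export and breakdown, had 99.0, 101, 105 and 112 CPM in the cyclocreatine libraries, against 39.1, 37.9, 38.6 and 38.6 CPM in the vehicle libraries (log2 fold change 1.44 ± 0.06, edgeR adjusted p = 6.94e-20). PRODH, which starts proline oxidation, averaged 1.84 ± 0.188 CPM with cyclocreatine and 0.72 ± 0.182 CPM with vehicle (1.33). AZIN1, an inhibitor of antizyme that protects ornithine decarboxylase, averaged 148 ± 4.56 CPM with cyclocreatine and 208 ± 2.7 CPM with vehicle (-0.49). OAT, ornithine aminotransferase, averaged 89.6 ± 1.41 CPM with cyclocreatine and 108 ± 4.33 CPM with vehicle (-0.28). Among the members that passed, enzymes of arginine, polyamine and proline breakdown had the largest increases.

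In the Kennedy pathway, which builds phosphatidylcholine and phosphatidylethanolamine, 3 of 12 tested genes fell and 3 rose. These are 25% each, near the 21.3% and 19.1% of all tested genes. Those that fell included the first kinases. ETNK1, ethanolamine kinase, had 46.7, 44.3, 45.5 and 45.8 CPM in the cyclocreatine libraries, against 120.5, 128, 141 and 125 CPM in the vehicle libraries (log2 fold change -1.50 ± 0.06, edgeR adjusted p = 5.62e-22). CHKA, choline kinase, had 27.6, 26.1, 28.5 and 26.9 CPM in the cyclocreatine libraries, against 55.5, 51.0, 53.2 and 56.1 CPM in the vehicle libraries (log2 fold change -0.98 ± 0.06, edgeR adjusted p = 2.61e-17). PCYT1B, an enzyme that makes CDP-choline, averaged 3.18 ± 0.564 CPM with cyclocreatine and 5.82 ± 0.283 CPM with vehicle (-0.88). The choline transporters SLC44A1 (250.1 ± 6.16 CPM with cyclocreatine and 199 ± 5.63 CPM with vehicle; 0.33) and SLC44A2 (0.15) rose, as did PEMT (0.36), which methylates phosphatidylethanolamine to phosphatidylcholine. With a trend in GC content removed 1 gene of this list rose and 5 fell.

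The genes of the integrated stress response, which the factor ATF4 drives when amino acids are short or the endoplasmic reticulum is stressed, moved in both directions. Of 35 tested, 11 rose and 9 fell, with a median of 0.04. These are 31.4% and 25.7%, against 19.1% and 21.3% of all tested genes. DDIT3, the stress factor CHOP, had 11.1, 11.3, 12.7 and 11.8 CPM in the cyclocreatine libraries, against 5.23, 6.01, 5.24 and 5.65 CPM in the vehicle libraries (log2 fold change 1.08 ± 0.13, edgeR adjusted p = 2.63e-08). DDIT4, an inhibitor of mTORC1, had 16.2, 18.0, 16.9 and 16.5 CPM in the cyclocreatine libraries, against 8.02, 7.38, 8.48 and 8.64 CPM in the vehicle libraries (log2 fold change 1.06 ± 0.12, edgeR adjusted p = 1.66e-07). SESN2, a leucine sensor, averaged 31.4 ± 2.17 CPM with cyclocreatine and 22.9 ± 1.52 CPM with vehicle (0.45). ATF4 itself averaged 209.8 ± 4.81 CPM with cyclocreatine and 179 ± 3.31 CPM with vehicle (0.23). Other targets of the same pathway fell, among them SLC38A1 and ATF5 (22.2 ± 1.32 CPM with cyclocreatine and 33.6 ± 1.39 CPM with vehicle; -0.60). XBP1, a factor of the unfolded protein response described below, fell as well (446 ± 14.9 CPM with cyclocreatine and 667 ± 11.7 CPM with vehicle; -0.58). Of 20 cytosolic aminoacyl-tRNA synthetases, which load amino acids onto tRNA, 5 rose (25%) and 6 fell (30%), with VARS at 0.37 and LARS at -0.37. In serine and one-carbon metabolism 4 of 18 rose (22.2%) and 3 fell (16.7%), near the shares of all tested genes. GLDC and MTHFD2 were among those that fell, at -2.37 and -0.15. TYMS, thymidylate synthase, averaged 179 ± 1.94 CPM with cyclocreatine and 135 ± 1.34 CPM with vehicle (0.41). The mitochondrial serine hydroxymethyltransferase SHMT2 averaged 301 ± 7.23 CPM with cyclocreatine and 229 ± 3.31 CPM with vehicle (0.39).

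In the endoplasmic reticulum unfolded protein response, which raises chaperones and degradation factors of that compartment, 14 of 21 genes fell (66.7%, against 21.3% of all tested genes) and 1 rose, with a median of -0.18. XBP1, the factor spliced by the sensor IRE1, had 433, 455, 462 and 434 CPM in the cyclocreatine libraries, against 685, 662, 659 and 664 CPM in the vehicle libraries (log2 fold change -0.58 ± 0.03, edgeR adjusted p = 2.45e-17). HSP90B1, the chaperone GRP94, had 546, 538, 551 and 533 CPM in the cyclocreatine libraries, against 655, 640.2, 664 and 639 CPM in the vehicle libraries (log2 fold change -0.26 ± 0.03, edgeR adjusted p = 1.4e-09). HSPA5, the chaperone BiP, had 403, 397, 400.0 and 387 CPM in the cyclocreatine libraries, against 444, 448, 470.2 and 439.6 CPM in the vehicle libraries (log2 fold change -0.18 ± 0.03, edgeR adjusted p = 1.59e-05). In each of these 3 genes the groups were separate although the changes were small, and 44.2% of all tested genes were separate in this way. SDF2L1 (13.3 ± 0.529 CPM with cyclocreatine and 23.0 ± 1.65 CPM with vehicle) and EDEM1 (83.8 ± 1.72 CPM with cyclocreatine and 104 ± 4.97 CPM with vehicle), both of protein quality control, fell too. PDIA6 was the member that rose, by 0.08, and that call was lost in 8 of the alternative fits. Of 18 heat shock genes 5 rose (27.8%, against 19.1% of all tested genes) and 3 fell (16.7%, against 21.3%). Without cyclocreatine replicate 3 or 4 or vehicle replicate 4, 3 rose, and without cyclocreatine replicate 1 or vehicle replicate 3, 1 fell.

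Of 24 tested NRF2 targets, the genes of the antioxidant response, 9 rose (37.5%) and 6 fell (25%, or 3 genes without vehicle replicate 3). The shares of all tested genes were 19.1% and 21.3%. HMOX1, heme oxygenase 1, had 40.8, 40.1, 41.7 and 47.0 CPM in the cyclocreatine libraries, against 17.1, 18.8, 16.3 and 13.6 CPM in the vehicle libraries (log2 fold change 1.36 ± 0.09, edgeR adjusted p = 1.37e-15). SRXN1, sulfiredoxin, averaged 22.1 ± 0.36 CPM with cyclocreatine and 32.9 ± 1.22 CPM with vehicle (-0.57). Glutathione reductase GSR averaged 90.4 ± 3.86 CPM with cyclocreatine and 118 ± 6.17 CPM with vehicle (-0.38). Of the 7 tested metallothionein and zinc genes 1, MT2A, rose (65.3 ± 1.82 CPM with cyclocreatine and 45.3 ± 2.22 CPM with vehicle; 0.53) and 0 fell.

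In glycolysis 12 of 24 fell (50%, against 21.3% of all tested genes) and 4 rose (PFKM, HK1, PFKL and PKM, at 0.28, 0.24, 0.16 and 0.10), with a median of -0.13. The calls of PFKL and PKM were lost when a trend with GC content was removed (adjusted p = 0.712 and 0.68), and that of PFKM in limma-voom (adjusted p = 0.0696) and without cyclocreatine replicate 4 or vehicle replicate 3 (adjusted p = 0.11 and 0.0762). LDHA, lactate dehydrogenase A, had 890.0, 905, 916 and 882 CPM in the cyclocreatine libraries, against 1193, 1171, 1089 and 1120 CPM in the vehicle libraries (log2 fold change -0.35 ± 0.03, edgeR adjusted p = 2.02e-11). The lactate transporter SLC16A1 averaged 122 ± 2.09 CPM with cyclocreatine and 157 ± 8.2 CPM with vehicle (-0.36). PGK1, phosphoglycerate kinase, averaged 673 ± 8.77 CPM with cyclocreatine and 807 ± 37.7 CPM with vehicle (-0.26). Among hypoxia response genes 12 of 22 tested fell (54.5%) and 0 rose. In this list 2 rose and 12 fell with a trend in GC content removed, and 2 rose and 9 fell with a replicate block added to that. Their regulator HIF1A did not pass at a log2 fold change of 0.06 (edgeR adjusted p = 0.477). HIF1A was called higher with a trend in GC content removed (0.18, adjusted p = 0.00387). BNIP3, a mitophagy receptor, had 45.0, 46.4, 50.7 and 52.4 CPM in the cyclocreatine libraries, against 89.5, 92.3, 83.1 and 90.1 CPM in the vehicle libraries (log2 fold change -0.87 ± 0.07, edgeR adjusted p = 7.68e-13). PDK1, which inhibits pyruvate dehydrogenase, averaged 55.2 ± 2.24 CPM with cyclocreatine and 80.4 ± 4.07 CPM with vehicle (-0.54), and the glycolysis and hypoxia lists share targets of the same factor.

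Of 77 nuclear-encoded subunits of oxidative phosphorylation 27 rose (35.1%, against 19.1% of all tested genes, and 44 genes when the 8 libraries were fitted alone), 45 did not pass and 5 fell (3 without cyclocreatine replicate 1 or vehicle replicate 3), with a median of 0.09. NDUFS7 of complex I averaged 70.0 ± 3.0 CPM with cyclocreatine and 49.3 ± 1.86 CPM with vehicle (0.51). UQCRB of complex III averaged 177 ± 2.96 CPM with cyclocreatine and 143 ± 2.22 CPM with vehicle (0.30), while cytochrome c, CYCS, fell (112 ± 4.26 CPM with cyclocreatine and 135 ± 5.36 CPM with vehicle; -0.27). Of 25 genes of the tricarboxylic acid cycle 11 rose (44%, against 19.1% of all tested genes) and 6 fell (24%, against 21.3%). With a trend in GC content removed 1 fell, and 3 fell without cyclocreatine replicate 1 or vehicle replicate 3. DLST of the oxoglutarate dehydrogenase complex had 169, 175, 169 and 168 CPM in the cyclocreatine libraries, against 133, 130.3, 127 and 125 CPM in the vehicle libraries (log2 fold change 0.40 ± 0.04, edgeR adjusted p = 9.67e-11). Its partner OGDH averaged 54.4 ± 2.43 CPM with cyclocreatine and 43.6 ± 4.41 CPM with vehicle. Citrate synthase CS averaged 316 ± 10.7 CPM with cyclocreatine and 269 ± 8.75 CPM with vehicle. SDHB averaged 87.4 ± 3.76 CPM with cyclocreatine and 72.2 ± 2.35 CPM with vehicle. These 4 genes all rose, by 0.40 or less.

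The list of energy stress, FOXO and MondoA targets holds KLF2, KLF6, TSC22D3 and TXNIP, and 11 of its 25 tested genes rose and 5 fell. These are 44% and 20%, against 19.1% and 21.3% of all tested genes. The list was chosen with earlier results of these data known and holds genes named above for their increases. Its count is thus not separate evidence. PIK3IP1, a FOXO target that inhibits PI3 kinase, had 10.1, 9.77, 9.82 and 10.1 CPM in the cyclocreatine libraries, against 4.21, 4.94, 3.93 and 4.45 CPM in the vehicle libraries (log2 fold change 1.18 ± 0.13, edgeR adjusted p = 2.71e-09). The arrestin ARRDC3 averaged 46.5 ± 1.42 CPM with cyclocreatine and 29.5 ± 3.5 CPM with vehicle (0.66), whereas its relative ARRDC4, another MondoA target, averaged 113 ± 4.6 CPM with cyclocreatine and 114 ± 3.2 CPM with vehicle and did not pass (log2 fold change -0.02 ± 0.06, edgeR adjusted p = 0.823). SGK1, a kinase downstream of mTORC2, averaged 2.01 ± 0.515 CPM with cyclocreatine and 0.997 ± 0.162 CPM with vehicle. SESN3, a FOXO target, averaged 2.72 ± 0.339 CPM with cyclocreatine and 1.51 ± 0.263 CPM with vehicle. SGK1 and SESN3 both rose, and the SESN3 call was lost in limma-voom (adjusted p = 0.0611). The 5 that fell were the AMPK subunits PRKAA1 (123 ± 1.77 CPM with cyclocreatine and 154 ± 4.06 CPM with vehicle; -0.32), PRKAB1 (-0.20) and PRKAG2 (-0.40), the insulin receptor substrate IRS2 (-0.40) and the coactivator CITED2 (-0.60). Of 31 autophagy and lysosome genes 14 rose (45.2%) and 2 fell (GABARAPL1 at -1.05 and ATG14 at -0.27). FLCN, folliculin, a regulator of mTORC1 at the lysosome, had 46.6, 46.0, 46.1 and 49.2 CPM in the cyclocreatine libraries, against 28.95, 29.9, 28.0 and 28.99 CPM in the vehicle libraries (log2 fold change 0.70 ± 0.05, edgeR adjusted p = 1e-13). The lysosomal protease CTSD averaged 446 ± 14.4 CPM with cyclocreatine and 355 ± 6.85 CPM with vehicle (0.33). The proton pump subunit ATP6V1A averaged 290.4 ± 4.52 CPM with cyclocreatine and 241 ± 13.5 CPM with vehicle (0.27).

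Lipid genes showed no single direction. In cholesterol biosynthesis 8 of 25 rose (32%, against 19.1% of all tested genes) and 4 fell (16%, against 21.3%). CYP51A1 at -0.67 and IDI1 at -0.44 were among those lower. In fatty acid synthesis 4 of 18 tested rose (22.2%) and 6 fell (33.3%), with malic enzyme ME1 at 0.48 and the regulator SREBF1 at -0.37.

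Nearly all cytosolic ribosomal protein genes rose. Of 77 tested, 74 rose (96.1%, against 19.1% of all tested genes) and 0 fell, with a median log2 fold change of 0.26. RPS2 had 1698, 1756, 1813 and 1788 CPM in the cyclocreatine libraries, against 1416, 1421, 1442 and 1405 CPM in the vehicle libraries (log2 fold change 0.31 ± 0.04, edgeR adjusted p = 1.72e-07). RPL12 averaged 1005 ± 24.5 CPM with cyclocreatine and 771 ± 20.1 CPM with vehicle (0.38). RPL10 averaged 772 ± 13.6 CPM with cyclocreatine and 603 ± 19.9 CPM with vehicle (0.36). These genes have many processed pseudogenes, so reads can be misplaced. The count was 71 to 74 rising when any 1 of the 8 libraries was left out. Genes of MYC and ribosome biogenesis, which build ribosomal RNA and its particles, had 16 of 30 falling (53.3%, against 21.3% of all tested genes), 4 rising and 10 that did not pass. MYC averaged 320.2 ± 10.3 CPM with cyclocreatine and 391 ± 10.9 CPM with vehicle (-0.29). UBTF, a factor of RNA polymerase I, had 174, 175, 174 and 176 CPM in the cyclocreatine libraries, against 241, 246, 248 and 230.5 CPM in the vehicle libraries (log2 fold change -0.46 ± 0.04, edgeR adjusted p = 3.9e-12). TCOF1, which also serves ribosomal RNA synthesis, rose (167 ± 2.56 CPM with cyclocreatine and 137 ± 7.25 CPM with vehicle; 0.28).

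Cell cycle genes changed by small amounts in UCSD-AML1. Of 40 genes of G1/S and DNA replication 12 rose and 13 fell, with a median of -0.02. These are 30% and 32.5%, against 19.1% and 21.3% of all tested genes, and with the GC trend and a replicate block in the fit 8 rose and 8 fell. CCNE2, cyclin E2, averaged 25.1 ± 2.28 CPM with cyclocreatine and 38.4 ± 1.84 CPM with vehicle (-0.61). The replication licensing factor CDT1 averaged 163 ± 4.18 CPM with cyclocreatine and 128 ± 2.36 CPM with vehicle (0.35). Of 38 G2/M and mitosis genes 15 fell (39.5%) and 3 rose (7.89%), with a median of -0.10. With a trend in GC content removed 9 fell and the median was -0.04. HMMR, a spindle protein, averaged 49.7 ± 1.49 CPM with cyclocreatine and 71.1 ± 4.51 CPM with vehicle (-0.52). The spindle kinesin KIF11 averaged 144 ± 1.43 CPM with cyclocreatine and 182 ± 4.72 CPM with vehicle (-0.34). DLGAP5, a spindle assembly factor, averaged 83.0 ± 3.84 CPM with cyclocreatine and 105 ± 1.66 CPM with vehicle (-0.35). The 3 that rose were CDC20 (0.29), AURKB (0.36) and FOXM1, the factor that drives mitotic genes, with 175, 169, 176 and 175 CPM in the cyclocreatine libraries, against 125, 123, 121 and 119.6 CPM in the vehicle libraries (log2 fold change 0.51 ± 0.04, edgeR adjusted p = 5.49e-13). In bulk RNA fewer cells in a phase and less RNA per cell cannot be told apart, and the same holds for all levels given here.

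The effect in UCSD-AML1 was set against that in the other lines for 4 of these lists. Over all 14588 tested genes, 3285 rose and 3404 fell in UT-7, and 3901 rose and 4272 fell in TF-1. In UT-7, G1/S genes had 0 rising and 33 falling of 40, and the difference between the lines (UCSD-AML1 minus UT-7) was itself called for 29 of them, where 23% of all tested genes were called. G2/M genes had 28 rising and 1 falling in UT-7, and 30 of 38 differed. In TF-1, G1/S genes had 16 rising and 16 falling with a median of 0.01, and 16 of 40 differed from UCSD-AML1. G2/M genes in TF-1 had 17 rising and 7 falling with a median of 0.09, and 20 of 38 differed, where 29.1% of all tested genes were called. Of the 21 unfolded protein response genes 12 rose and 2 fell in UT-7, and 14 differed between UCSD-AML1 and UT-7. In TF-1, 8 of these 21 rose and 4 fell, and 13 differed from UCSD-AML1. Of the 77 ribosomal protein genes 74 rose in UT-7 too, with a median of 0.31, and 3 differed from UCSD-AML1. In TF-1 all 77 rose, with a median of 0.57, and 68 differed.

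**Figure D4:**
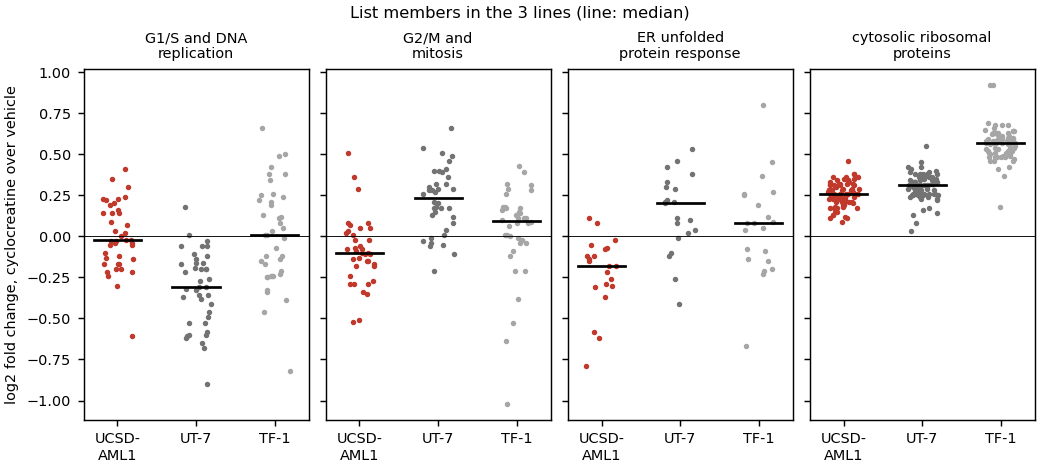
Each point is a tested member of 1 of 4 lists, placed by its log2 fold change (cyclocreatine over vehicle) in UCSD-AML1 (red), UT-7 (dark grey) or TF-1 (light grey); bars are medians. UCSD-AML1 has medians of -0.02 for G1/S, -0.10 for G2/M and -0.18 for the unfolded protein response (ER, endoplasmic reticulum), where UT-7 has -0.31, 0.23 and 0.20, and the ribosomal proteins lie highest in TF-1.

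The BCL2 family holds proteins that open the mitochondrial outer membrane in cell death and others that guard it. In this family 7 of 18 tested fell (38.9%, against 21.3% of all tested genes) and 3 rose (16.7%, against 19.1%). The median log2 fold change was 0.01. The 3 that rose, BBC3, BMF and BAX, are known to promote death. BBC3, also called PUMA, had 27.1, 27.8, 29.9 and 30.4 CPM in the cyclocreatine libraries, against 16.0, 18.8, 15.7 and 17.1 CPM in the vehicle libraries (log2 fold change 0.77 ± 0.11, edgeR adjusted p = 4.13e-07). BMF averaged 15.8 ± 0.811 CPM with cyclocreatine and 10.1 ± 1.18 CPM with vehicle (0.64). BAX averaged 105 ± 7.02 CPM with cyclocreatine and 86.8 ± 2.76 CPM with vehicle (0.28). Of those that fell, BCL2 had 80.8, 78.3, 84.5 and 75.3 CPM in the cyclocreatine libraries, against 107, 107, 115 and 109 CPM in the vehicle libraries (log2 fold change -0.46 ± 0.05, edgeR adjusted p = 3.77e-09), a protective protein, as are BCL2L1 (-0.28), BCL2L2 (-0.27) and MCL1 (-0.14). The rest that fell were BID (-0.32), which promotes death, and the mitophagy receptors BNIP3 and BNIP3L (-0.14, a call lost with a trend in GC content removed). Of 25 tested p53 targets 10 rose (40%, against 19.1% of all tested genes) and 1, RRM2B, fell (-0.37). DDB2, a DNA damage recognition protein, averaged 52.0 ± 1.54 CPM with cyclocreatine and 36.7 ± 2.63 CPM with vehicle (0.50). PLK2 averaged 109 ± 5.33 CPM with cyclocreatine and 76.9 ± 1.63 CPM with vehicle (0.50). TP53I3 averaged 16.9 ± 1.2 CPM with cyclocreatine and 10.7 ± 1.09 CPM with vehicle (0.67). The classic targets CDKN1A and MDM2 had log2 fold changes of -0.09 and -0.14 and did not pass (edgeR adjusted p = 0.313 and 0.0747). CDKN1A was called lower with a trend in GC content removed (-0.21, adjusted p = 0.0101) and MDM2 with the 8 libraries fitted alone (-0.13, adjusted p = 0.00549) or without vehicle replicate 4 (-0.18, adjusted p = 0.0327).

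In the MAPK feedback and immediate early list 9 of 25 tested fell (36%) and 5 rose (20%), against 21.3% and 19.1% of all tested genes. The 5 that rose were JUN, NR4A1, NR4A2 (4.76 ± 0.789 CPM with cyclocreatine and 1.38 ± 0.191 CPM with vehicle; 1.79), NR4A3 (1.01 ± 0.215 CPM with cyclocreatine and 0.344 ± 0.101 CPM with vehicle; 1.51) and EGR1 (7.08 ± 0.446 CPM with cyclocreatine and 4.39 ± 0.658 CPM with vehicle; 0.68), transcription factors of the immediate early class. Of the 9 that fell, 5 are described here. CCND1, cyclin D1, had 15.8, 18.9, 15.6 and 16.7 CPM in the cyclocreatine libraries, against 37.3, 41.2, 44.5 and 41.6 CPM in the vehicle libraries (log2 fold change -1.29 ± 0.07, edgeR adjusted p = 1.05e-17). DUSP6, the phosphatase of ERK, had 77.3, 78.6, 85.6 and 82.0 CPM in the cyclocreatine libraries, against 135, 134, 135 and 138 CPM in the vehicle libraries (log2 fold change -0.74 ± 0.07, edgeR adjusted p = 9.93e-11). DUSP5 averaged 49.3 ± 1.03 CPM with cyclocreatine and 84.7 ± 0.976 CPM with vehicle (-0.78). The ETS factor ETV4 averaged 4.09 ± 0.766 CPM with cyclocreatine and 10 ± 1.04 CPM with vehicle. Its relative ETV5 averaged 35.2 ± 1.3 CPM with cyclocreatine and 58.2 ± 3.19 CPM with vehicle. FOS did not pass, at a log2 fold change of 0.10 (edgeR adjusted p = 0.919).

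Among JAK-STAT targets 6 of 15 tested fell (40%, against 21.3% of all tested genes) and 2 rose (13.3%, against 19.1%). PIM2, a survival kinase induced by STAT5, had 32.6, 38.3, 36.5 and 34.4 CPM in the cyclocreatine libraries, against 92.1, 90.9, 84.4 and 92.5 CPM in the vehicle libraries (log2 fold change -1.34 ± 0.05, edgeR adjusted p = 1.34e-22). CISH, a feedback inhibitor of cytokine receptors, averaged 34.4 ± 1.46 CPM with cyclocreatine and 47.9 ± 1.27 CPM with vehicle (-0.48). PIM1 averaged 299 ± 7.48 CPM with cyclocreatine and 347 ± 8.74 CPM with vehicle (-0.22), while SOCS3 (23.4 ± 2.16 CPM with cyclocreatine and 18.3 ± 0.833 CPM with vehicle) and PIM3 (93.8 ± 4.29 CPM with cyclocreatine and 74.7 ± 1.6 CPM with vehicle) rose, calls that were lost when a trend with GC content was removed (adjusted p = 0.295 and 0.805). Of 15 tested growth factor receptors 3 rose (20%, near the 19.1% of all tested genes) and 2 fell, and 1 rose without any 1 of cyclocreatine replicates 2, 3 and 4 and vehicle replicates 3 and 4. CSF3R, the G-CSF receptor, averaged 74.1 ± 0.833 CPM with cyclocreatine and 51.1 ± 1.22 CPM with vehicle (0.53), and IL2RG (0.11) also rose. The IL2RG call was lost with the replicate block (adjusted p = 0.058) and without any 1 of cyclocreatine replicates 2, 3 and 4 and vehicle replicates 3 and 4 (adjusted p of 0.0593 to 0.205). EPOR, the erythropoietin receptor, averaged 1.53 ± 0.329 CPM with cyclocreatine and 2.57 ± 0.464 CPM with vehicle (-0.75). CSF2RB, the signaling chain shared by the GM-CSF and IL-3 receptors, averaged 109 ± 3.53 CPM with cyclocreatine and 128 ± 3.9 CPM with vehicle (-0.23).

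Of 28 genes of the type I interferon response 17 fell (60.7%, against 21.3% of all tested genes) and 3 rose, with a median of -0.31. MX1, a GTPase that blocks viruses, had 357, 351, 347 and 340.1 CPM in the cyclocreatine libraries, against 470.5, 482, 449 and 464 CPM in the vehicle libraries (log2 fold change -0.42 ± 0.04, edgeR adjusted p = 6.49e-11). MX2 averaged 23.0 ± 1.59 CPM with cyclocreatine and 43.5 ± 3.29 CPM with vehicle (-0.92). IFITM1, a membrane restriction factor, averaged 106 ± 1.59 CPM with cyclocreatine and 166 ± 5.84 CPM with vehicle (-0.65). OAS2, a sensor of double-stranded RNA, averaged 308 ± 6.43 CPM with cyclocreatine and 419 ± 11.01 CPM with vehicle (-0.44). The 3 that rose were IFI6, IFI44L and IFI27 (0.31, 0.21 and 0.15). The IFI27 call was lost without cyclocreatine replicate 2 or vehicle replicate 3 (adjusted p = 0.0684 and 0.1) and when a trend with GC content was removed (adjusted p = 0.305). Of 18 tested antigen presentation genes 11 rose (61.1%, against 19.1% of all tested genes), 7 did not pass and 0 fell, with a median of 0.25. HLA-C had 229.5, 237, 252 and 247 CPM in the cyclocreatine libraries, against 173, 176, 167 and 164 CPM in the vehicle libraries (log2 fold change 0.50 ± 0.05, edgeR adjusted p = 1.52e-10). HLA-DMB, which helps load class II peptides, averaged 4.51 ± 0.482 CPM with cyclocreatine and 2.42 ± 0.271 CPM with vehicle (0.89). Beta-2 microglobulin, B2M, averaged 1841 ± 52.6 CPM with cyclocreatine and 1548 ± 33.2 CPM with vehicle (0.25). The HLA genes resemble each other and vary between people, so reads can be lost or misplaced among them. In the NF-kB and inflammatory list 7 of 18 tested fell (38.9%) and 4 rose (22.2%), with TNF at 6.33 ± 1.14 CPM with cyclocreatine and 11.3 ± 1.33 CPM with vehicle (-0.84). NFKBIA, the inhibitor of NF-kB, at 110.1 ± 4.79 CPM with cyclocreatine and 88.7 ± 2.22 CPM with vehicle (0.31).

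Of 19 tested markers of megakaryocytes and platelets 12 fell (63.2%, against 21.3% of all tested genes) and 2 rose, with a median of -0.55. GP1BA, part of the platelet receptor for von Willebrand factor, had 77.9, 77.0, 78.6 and 75.6 CPM in the cyclocreatine libraries, against 206, 209, 187 and 192 CPM in the vehicle libraries (log2 fold change -1.36 ± 0.05, edgeR adjusted p = 8.83e-23). ITGB3, the beta chain of the platelet fibrinogen receptor, had 99.6, 102, 107 and 101 CPM in the cyclocreatine libraries, against 204, 215, 205 and 192 CPM in the vehicle libraries (log2 fold change -0.99 ± 0.05, edgeR adjusted p = 1.35e-17). Its alpha chain partner ITGA2B had 595, 594, 578 and 588 CPM in the cyclocreatine libraries, against 592, 604, 562 and 580.4 CPM in the vehicle libraries and did not pass (log2 fold change 0.01 ± 0.03, edgeR adjusted p = 0.853), and it was called lower when a trend with GC content was removed (-0.13; adjusted p = 0.00023). The tubulin TUBB1 averaged 10.9 ± 0.31 CPM with cyclocreatine and 20.8 ± 0.748 CPM with vehicle (-0.92). PLEK, pleckstrin, averaged 214 ± 5.01 CPM with cyclocreatine and 297 ± 2.85 CPM with vehicle (-0.47). The platelet chemokine PPBP averaged 25.5 ± 0.872 CPM with cyclocreatine and 37.2 ± 1.7 CPM with vehicle (-0.55). VWF averaged 169 ± 5.11 CPM with cyclocreatine and 212 ± 14.1 CPM with vehicle (-0.33). GP9, part of the same receptor as GP1BA, was among those that rose (50.8 ± 1.63 CPM with cyclocreatine and 35.7 ± 2.52 CPM with vehicle; 0.50), and 1 marker rose without any 1 of cyclocreatine replicates 2, 3 and 4 and vehicle replicates 2, 3 and 4. The summed level of 7 defining megakaryocyte markers was 848.7 to 855.7 CPM with cyclocreatine and 1030 to 1109 CPM with vehicle. The 10 granulocyte and monocyte markers, 2 of which were at 0, summed to 653.3 to 674.6 CPM with cyclocreatine and 628.8 to 656.9 CPM with vehicle. The 9 erythroid markers, 4 of which were at 0, summed to 1.667 to 2.52 CPM with cyclocreatine and 3.035 to 4.039 CPM with vehicle. The part of a shift in cell types in these results was not tested.

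**Figure D5:**
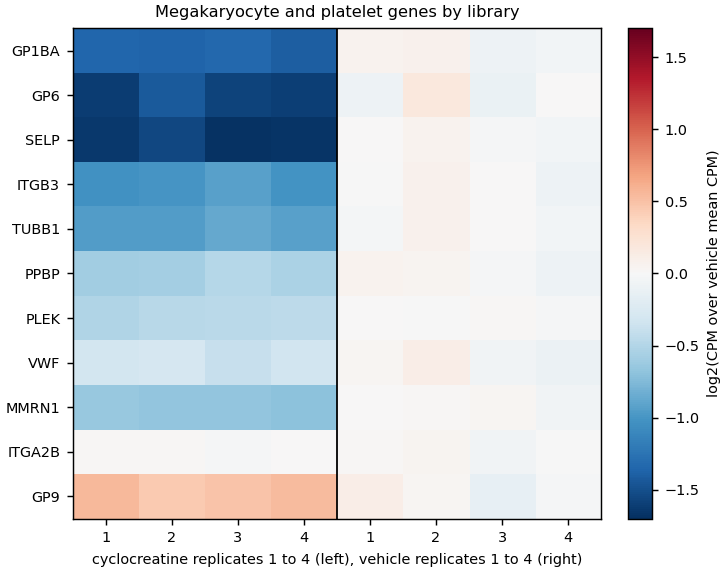
Each row is a megakaryocyte or platelet gene and each column a library, cyclocreatine replicates left and vehicle replicates right; color gives the log2 ratio of the library's CPM to the vehicle mean. All 4 cyclocreatine columns are lower for the 9 genes from GP1BA to MMRN1, near 0 for ITGA2B, and higher for GP9.

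Stem and progenitor regulators shifted in both directions, with 11 of 29 tested rising and 4 falling (7 falling with a trend in GC content removed). These are 37.9% and 13.8%, against 19.1% and 21.3% of all tested genes. MECOM, which encodes EVI1, had 336, 338, 344 and 338 CPM in the cyclocreatine libraries, against 408, 419, 428 and 394 CPM in the vehicle libraries (log2 fold change -0.28 ± 0.08, edgeR adjusted p = 0.00862), and this call was lost in DESeq2 (adjusted p = 0.101). GATA2, a progenitor factor whose enhancer drives MECOM in such rearrangements, had 465, 470.0, 487 and 477 CPM in the cyclocreatine libraries, against 404, 407, 389 and 406 CPM in the vehicle libraries (log2 fold change 0.24 ± 0.03, edgeR adjusted p = 4.69e-08), and its call was lost when a trend with GC content was removed (adjusted p = 0.218). RUNX1, a core factor of blood stem cells, had 365, 351, 347 and 340.4 CPM in the cyclocreatine libraries, against 495, 508, 499 and 493 CPM in the vehicle libraries (log2 fold change -0.51 ± 0.03, edgeR adjusted p = 1.04e-14). The ETS factor FLI1 averaged 455 ± 7.59 CPM with cyclocreatine and 590.1 ± 19.4 CPM with vehicle (-0.38). GFI1B, a repressor needed by megakaryocyte and red cell precursors, averaged 185 ± 3.46 CPM with cyclocreatine and 231 ± 8.12 CPM with vehicle (-0.32). ZFPM1, the GATA cofactor FOG1, averaged 81.3 ± 4.37 CPM with cyclocreatine and 59.5 ± 2.44 CPM with vehicle (0.45). HOXA9, a homeobox factor of leukemia, was low and rose by 1.09 (4.14 ± 0.737 CPM with cyclocreatine and 1.94 ± 0.497 CPM with vehicle). The 4 that fell were MECOM, RUNX1, FLI1 and GFI1B. Each separated by group in all libraries, as did 44.2% of all tested genes and 5441 of the 5902 called genes.

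Of 31 erythroid genes, 15 of which reached 1 CPM, 8 fell (25.8%, against 21.3% of all tested genes) and 2 rose (6.45%, against 19.1%). Those that rose were GYPC at 0.23 and NFE2 at 0.11. The NFE2 call was lost with a trend in GC content removed or without replicate 3 of either group. Without cyclocreatine replicate 2, 4 rose, and without replicate 3 of either group 1 rose. RHAG, of the red cell Rh complex, had 50.4, 55.8, 54.9 and 49.1 CPM in the cyclocreatine libraries, against 87.8, 90.5, 90.1 and 86.3 CPM in the vehicle libraries (log2 fold change -0.75 ± 0.04, edgeR adjusted p = 4.11e-18). HEMGN, a nuclear factor of early blood cells, averaged 44.7 ± 2.1 CPM with cyclocreatine and 75.3 ± 1.51 CPM with vehicle (-0.75). GATA1 averaged 16.6 ± 0.609 CPM with cyclocreatine and 21.0 ± 1.08 CPM with vehicle (-0.34). Of 21 tested granulocyte and monocyte genes 5 rose and 5 fell (3 fell without cyclocreatine replicate 1). These are 23.8% each, near the shares of all tested genes. The lectin CLEC12A averaged 85.8 ± 3.03 CPM with cyclocreatine and 62.2 ± 0.702 CPM with vehicle (0.46). Of 13 tested lymphoid genes 3 rose (23.1%) and 4 fell (30.8%). Higher were CD5 (13.3 ± 0.451 CPM with cyclocreatine and 6.42 ± 0.123 CPM with vehicle), CD79B (0.32) and CD7 (0.30, a call lost with a trend in GC content removed or without vehicle replicate 2), and lower were LCK (6.03 ± 0.453 CPM with cyclocreatine and 10.2 ± 1.06 CPM with vehicle), CD2 (-1.19), CD22 (-1.71) and PAX5 (-0.65). Of 8 tested stromal and epithelial genes 0 rose and 1 fell, KDR, which had 1 count over the cyclocreatine group and 19 over the vehicle group. Of 21 tested histone genes, most of which lack a poly(A) tail, HIST1H3D rose (0.688 ± 0.24 CPM with cyclocreatine and 0.162 ± 0.0764 CPM with vehicle) and HIST2H2BE fell (3.42 ± 0.382 CPM with cyclocreatine and 6.46 ± 1.06 CPM with vehicle). These low counts gave 5 rising without cyclocreatine replicate 3, 3 without cyclocreatine replicate 4 and 2 without vehicle replicate 4.

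Genes called in UCSD-AML1 and in another line mostly had the same sign. In UT-7, 6689 genes were called (45.9%), and 3656 were called in both lines, 61.9% of the UCSD-AML1 calls and 54.7% of those of UT-7, of which 3190 had the same sign. In TF-1, 8173 were called (56%), 4154 in both, 70.4% of the UCSD-AML1 calls and 50.8% of those of TF-1, of which 3711 had the same sign. The difference in effect itself (UCSD-AML1 minus UT-7) was called for 3351 genes, 1680 higher and 1671 lower. Against TF-1 it was called for 4242 genes, 2086 higher and 2156 lower, and with libraries scaled by their totals alone this split became 2766 and 1329. For 466 genes the effects were called with opposite signs in UCSD-AML1 and UT-7 and their difference was called, and for 442 in UCSD-AML1 and TF-1. Calls of opposite sign nearly fix that the difference is called, so that test adds little for these genes. The contrasts with UT-7 and TF-1 share the UCSD-AML1 libraries.

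The genes with the largest differences from UT-7, at 5 CPM or more in both lines, again included JUN and KLF6. JUN rose by 2.72 in UCSD-AML1 and by 0.83 in UT-7 (difference 1.89 ± 0.15, edgeR adjusted p = 1.06e-12). KLF6 rose by 2.01 and 0.39 (difference 1.62 ± 0.08, edgeR adjusted p = 2.76e-18). SPTB, NR4A1 and SOCS3 were the other 3 with a higher effect, with differences of 2.08, 1.45 and 1.51. The rise of SOCS3 in UCSD-AML1 was small. Its call was lost when a trend with GC content was removed (0.12, edgeR adjusted p = 0.295). The SOCS3 difference thus reflects mostly a fall in UT-7. Among the genes with a lower effect in UCSD-AML1 than in UT-7, PFKFB2 differed most, at -2.21 against -0.35 in UT-7 (difference -1.85 ± 0.12, edgeR adjusted p = 3.49e-15). DNAJC6, PTK7, CXCL8 and PTAFR followed, with differences of -1.58, -1.57, -1.52 and -1.46. PTK7 did not fall in UCSD-AML1, so its difference reflects a larger rise in UT-7. Its small rise in UCSD-AML1 was a call lost with the replicate block (0.15, edgeR adjusted p = 0.0597). The chemokine gene CXCL8 had -0.30 in UCSD-AML1 and 1.22 in UT-7. Its call in UCSD-AML1 was lost when a trend with GC content was removed (adjusted p = 0.0937).

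Against TF-1, among genes at 5 CPM or more in both lines, the largest differences were in TSC22D3 and JUN. TSC22D3 had a log2 fold change of 2.11 in UCSD-AML1 and of -1.05 in TF-1 (difference 3.16 ± 0.12, edgeR adjusted p = 4.17e-22), so the effects ran in opposite directions. JUN had 2.72 and -0.04 (difference 2.76 ± 0.15, edgeR adjusted p = 1.58e-17). SPTB, MMP15 and KLF6 were the others with a higher effect in UCSD-AML1, with differences of 2.36, 2.21 and 2.21. MMP15 did not pass in UCSD-AML1 and was called there only with the 8 libraries fitted alone (0.07). Its difference thus reflects mostly a fall in TF-1. Effects lower than in TF-1 were those on SOX4, ENPP2, RHAG, IL1RL1 and GP6, with differences of -1.49, -1.40, -1.31, -1.29 and -1.29. RHAG fell in UCSD-AML1 (-0.75) and rose in TF-1 (0.56), whereas ENPP2, the lysophospholipase autotaxin, rose in both and more in TF-1 (0.58 and 1.98). KLF2 rose in UT-7 too (5.36, difference 1.34 ± 0.42, edgeR adjusted p = 0.0168), while in TF-1, at 0.695 CPM with cyclocreatine and 0.422 CPM with vehicle, it did not pass (0.66, adjusted p = 0.0916; difference 6.04 ± 0.49, edgeR adjusted p = 2.36e-12). SLC6A8 fell further in UCSD-AML1 than in TF-1 (difference -1.23 ± 0.37, edgeR adjusted p = 0.0165), and the difference from UT-7 did not pass (-0.81 ± 0.41, edgeR adjusted p = 0.177).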

How the data were processed

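The authors deposited 1 table per library with raw counts, whole numbers of reads for 25728 RefSeq gene symbols. Tools listed per the submitters' processing notes are TopHat2, RSEM and FastQC, with hg19 (GRCh37) as the build. The notes leave out roles and versions, which no label or file header supplies. RNA was extracted with RNeasy columns, per the labels' protocols. Strand use is not given, so overlapping and antisense genes cannot be told apart, and genes with near-identical copies are uncertain. In each file 26 symbols are written as dates and name no gene with certainty.

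Counts of the 24 libraries entered 1 group-means model in edgeR 4.0.16 (R 4.3.3; filterByExpr with a smallest count of 10 and total of 15, TMM, robust quasi-likelihood, 18 residual degrees of freedom), and the filter left 99.93% or more of every library's counts. Cyclocreatine was set against vehicle in UCSD-AML1, and this effect against those in UT-7 and TF-1. Tests were two-sided, with Benjamini-Hochberg adjustment over 14588 genes. SE was taken as |log2 fold change| divided by the root of the F statistic. The fit was tested on simulated data. No replicates were copies of each other (12 pairs, with a chi-square of 1.387 to 3.079 for each degree of freedom).

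The members, gene lists and rules were chosen with earlier results of these data known. The text names the 12 called genes per direction with the largest fold change (at least 5 CPM, no overlap of groups), the 6 most counted per direction with at least a 1.5-fold change, up to 4 members of each list with the smallest p, the creatine genes, MECOM and GATA2, and the 5 genes per direction with the largest difference from each other line. Other list members that are named were picked after their values were seen, and a few members counted in the lists are not reported here by name. Alternatives used DESeq2 1.42.0, limma-voom (limma 3.58.1), library totals alone, other filters, a replicate block, the UCSD-AML1 libraries alone, each library left out, and removal of a lowess trend of each library with transcript GC content (median over GENCODE transcripts of a gene; 13594 genes, 93.2%). Promoters are from a RefSeq table of GRCh38.p14. Plots used matplotlib 3.10.9, with Python 3.11.15.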

Additional observations from a re-analysis of the deposited data

Results flagged for a closer look

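In 27 of 446 groups of 4 libraries of a named gene (6.05%), 1 library lay far from the other 3 by Dixon's test, a share near the 1 in 20 that chance gives. Cyclocreatine replicate 1 was the highest of its group for GATM (0.191 CPM, against 0 in each of the others). Cyclocreatine replicate 1 was the lowest of its group for CD7 (28.6 CPM, against 30.6 to 31 in the others), GAMT (52.5 CPM, against 59 to 59.3 in the others) and PAX5 (6.41 CPM, against 8.65 to 8.92 in the others). Cyclocreatine replicate 2 was the highest of its group for BCL2L2 (39.6 CPM, against 37 to 37.3 in the others), DLST (175 CPM, against 168 to 169 in the others), KDR (0.0622 CPM, against 0 in each of the others) and PFKFB2 (8.15 CPM, against 6.92 to 7.11 in the others). Cyclocreatine replicate 2 was the lowest of its group for FOXM1 (169 CPM, against 175 to 176 in the others). Cyclocreatine replicate 3 was the highest of its group for DNAJC6 (8.14 CPM, against 7.08 to 7.24 in the others), FGF23 (53.3 CPM, against 49.4 to 49.9 in the others), PTAFR (5.75 CPM, against 4.72 to 4.89 in the others), SESN3 (3.23 CPM, against 2.54 to 2.57 in the others) and SGK1 (2.78 CPM, against 1.71 to 1.8 in the others). Cyclocreatine replicate 3 was the lowest of its group for PRKAG2 (16.7 CPM, against 18.2 to 18.5 in the others). Cyclocreatine replicate 4 was the highest of its group for AZIN1 (155 CPM, against 145 to 146 in the others) and CD34 (650.0 CPM, against 633 to 634 in the others). Vehicle replicate 1 was the highest of its group for IL1RL1 (16.7 CPM, against 16 in each of the others) and XBP1 (685 CPM, against 659 to 664 in the others). Vehicle replicate 2 was the highest of its group for CKM (6.7 CPM, against 5.46 to 5.66 in the others). Vehicle replicate 2 was the lowest of its group for EPOR (1.88 CPM, against 2.76 to 2.86 in the others) and KLF2 (0.25 CPM, against 0.552 to 0.598 in the others). Vehicle replicate 3 was the highest of its group for HIST1H3D (0.276 CPM, against 0.114 to 0.133 in the others). Vehicle replicate 3 was the lowest of its group for GATA2 (389 CPM, against 404 to 407 in the others) and IFI44L (153 CPM, against 175 to 176 in the others). Vehicle replicate 4 was the highest of its group for CD22 (2.33 CPM, against 1.38 to 1.5 in the others). Vehicle replicate 4 was the lowest of its group for SRXN1 (31 CPM, against 33.3 to 33.6 in the others). 

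The effect of cyclocreatine in UCSD-AML1 differed from that in UT-7 in 3351 genes by a test of the difference itself in edgeR. Among the genes named for this and the creatine genes, the difference (UCSD-AML1 minus UT-7, log2) was positive for SPTB (2.08), JUN (1.89), KLF6 (1.62), SOCS3 (1.51), NR4A1 (1.45) and CKB (0.28) and negative for PFKFB2 (-1.85), DNAJC6 (-1.58), PTK7 (-1.57), CXCL8 (-1.52) and PTAFR (-1.46). The effect of cyclocreatine in UCSD-AML1 differed from that in TF-1 in 4242 genes by a test of the difference itself in edgeR. Among the genes named for this and the creatine genes, the difference (UCSD-AML1 minus TF-1, log2) was positive for TSC22D3 (3.16), JUN (2.76), SPTB (2.36), MMP15 (2.21), KLF6 (2.21) and GAMT (0.70) and negative for SOX4 (-1.49), ENPP2 (-1.40), RHAG (-1.31), IL1RL1 (-1.29), GP6 (-1.29) and SLC6A8 (-1.23). The contrasts with UT-7 and TF-1 share the UCSD-AML1 libraries. No explanation of these values was tested.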

How the results depend on the processing

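Of 204 called genes named in the text, 183 kept direction and call in UCSD-AML1 under every alternative that tested them, and 21 lost the call under at least 1. An alternative whose filter left a gene out was not counted for that gene. Calls on few counts were therefore checked in fewer fits. Most losses came with removal of the GC trend, which ended calls of small increases in GAMT, GATA2, SOCS3, PIM3, PTK7, IFI27 and others. It turned the sign of ITGA2B, not called in the first place, to -0.13 (adjusted p = 0.00023, and -0.13 with the replicate block added), and that of PFKL to -0.02 (-0.02 with the block), uncalled. Of uncalled genes, CDH5 and PECAM1 became called with the GC trend removed, and PECAM1 and MMP15 with the 8 libraries fitted alone; the BAX call was lost with the GC trend and the block together (adjusted p = 0.051). The counts of genes higher and lower (2790 and 3112) were 2494 to 2606 and 2751 to 2949 with 1 library left out, 2659 and 2915 with the replicate block, 2499 and 3119 with the GC trend removed, 2367 and 2961 with both, 2765 and 3185 in DESeq2, 2836 and 3158 in limma-voom, and 3633 and 3680 with the 8 libraries fitted alone. The difference from UT-7 (1680 higher and 1671 lower) gave 1477 to 1578 and 1457 to 1605 with 1 library left out, and 2031 and 1365 with library totals alone. That from TF-1 (2086 and 2156) gave 1845 to 2353 and 1914 to 2542 with 1 library left out, and with library totals alone 1329 genes lower and 2766 higher; the cause was not tested. The replicate numbers do not pair the libraries (correlations of the deviations of same-numbered libraries -0.011 to 0.072), and the block moved no count of calls by over 1.5 times. Genes under about 1 CPM, such as GATM, CKMT2 and KDR, rest on few counts, which limits what this depth can show.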
